A study of Mus musculus with 6 samples.

Results

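The Myc, Max and Mxd network was followed in RNA-Seq counts of embryonic lenses through 9 genes, fixed by name, that encode transcription factors of one dimerization network. These were Mycn, Myc, Mycl, Max, Mxd3, Mxd4, Mxi1, Mnt and Mlx. All 9 were present among the 13024 genes of the deposited count table, and all 9 were among the 12879 genes tested. The 9 genes were taken by name, and earlier results of these data were known when they were chosen.

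The samples were 6 pools of E14.5 lenses from mice of a mixed C57BL/6 and FVB strain, each pool made of 10 lenses from 5 embryos, and the pools fell into 2 groups of 3, Gata3 CKO and control. CKO lenses carried 2 floxed Gata3 alleles and a Pax6-Cre transgene, whose Cre is driven by an ocular epithelial enhancer and the P0 promoter of Pax6 in the precursors of lens and cornea. The labels call the control pools wild type, and the study's text gives them as Gata3 f/f in its methods and as Gata3 f/wt without Cre in its results. Since only the CKO lenses carried Cre, an effect of Cre and one of Gata3 loss cannot be told apart.

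Members of this network share a basic helix-loop-helix leucine zipper, through which they pair. Max is the common partner: Myc proteins bind DNA with Max at the E-box CACGTG and recruit coactivators, whereas Mxd proteins and Mnt bind the same sites with Max and recruit Sin3 and histone deacetylases. Mlx is a Max-like partner that pairs with Mnt, with some Mxd proteins and with the glucose-responsive factors MondoA and ChREBP. Myc proteins drive cell growth, ribosome production and entry into the cell cycle, and Mxd proteins are known for replacing them as cells leave the cycle. In the lens, proliferation is kept to the anterior epithelium and fibre cells exit the cycle as they elongate, and N-Myc, the product of Mycn, is known to be needed for lens growth and fibre differentiation.

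The E-box itself was present in the promoter windows of some network genes, and it is shown here because it is the site that the Myc, Mxd and Mnt dimers recognise. Windows of 300 bases (250 before and 50 after each RefSeq start, build GRCm38.p6) were matched for 8 of the 9 genes, 10 windows in all because Mxi1 had 3 starts, and Myc was not matched. CACGTG, which reads the same on both strands, was found in 4 of these 10 windows, those of Max, Mxd4, Mnt and Mlx, and in 7.15% of all 32851 promoter windows of the same length (9.74% of the windows of counted genes). The 30 bases around each one are given 5′ to 3′ on the strand of the gene, with the E-box in capitals. They lie at chr12:76962234-76962263 (Max, reverse strand), chr5:34187912-34187941 (Mxd4, reverse strand), chr11:74830789-74830818 (Mnt, forward strand) and chr11:101087238-101087267 (Mlx, forward strand), and the E-box begins 3, 219, 123 and 40 bases before the respective start.
Max: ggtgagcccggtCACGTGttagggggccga
Mxd4: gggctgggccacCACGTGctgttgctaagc
Mnt: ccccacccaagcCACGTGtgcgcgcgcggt
Mlx: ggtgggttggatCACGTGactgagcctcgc
The letters that GATA factors are known to bind, AGATAA or TGATAA and the same with G as the last base, were searched on both strands and found in 1 of the 10 windows, that of Mlx, and in 29.8% of all windows (18.1% of those of counted genes). These are matches of letters, and no binding was measured.

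The libraries held 15157230 to 18811104 counts. Values are CPM, counts scaled to a common library size with edgeR's TMM factors, and differences are log2 fold changes of the libraries labelled CKO over control. The targeted gene went against its label: the counts of Gata3 were 202, 386 and 156 in the control libraries but 910, 1064 and 894 in those labelled CKO. Only exon 4 is deleted in the CKO and counts were summed over exons, so the deletion itself cannot be seen in them. Of the 16 crystallins 15, and of the 16 lens fibre markers all 16, were lower in the libraries labelled CKO. At an unadjusted p under 0.05 in edgeR, 10 and 9 were lower, against 2.24% of all genes tested. Without control replicate 2, 14 crystallins and 11 fibre markers were lower. Below, CKO stands for the libraries labelled so, and every direction is that of the labels. Markers of lens were high in every library, with the fibre gene Mip at 2294 to 8073 CPM. Control replicate 2 stood apart: crystallins took 16.5% of its counts, against 5.47% to 9.31% in the other 5 libraries. RNA of neighbouring tissue was also present. The 15 retina markers summed to 1449 to 3510 CPM in control and 2374 to 3122 CPM in CKO, with the lowest sum in control replicate 2 and the highest in control replicate 3. The 12 mesenchyme markers summed to 362 to 2624 CPM in control and 459 to 4580.5 CPM in CKO, highest in control replicate 1 and CKO replicate 2. In these bulk pools, fewer cells of a type and less RNA per cell cannot be told apart.

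Mycn was the leading gene of the network. Per kilobase of annotated exon, its level was 42.5 ± 3.57 CPM in control libraries and 46.6 ± 1.83 in those labelled CKO (SD, n = 3 each), higher than 93.8% of genes with an annotated length. Max and Mycl followed, at means of 16.6 and 16.2 CPM per kilobase over the 6 libraries, then Mnt at 11.9, Mlx at 9.72, Mxi1 at 9.53, Myc at 5.30, Mxd3 at 4.24 and Mxd4 at 2.47. Among neighbours in this order, the ranges over the 6 libraries did not overlap between Mycn and Max, between Mnt and Mlx, between Mxi1 and Myc, or between Mxd3 and Mxd4. The ranges overlapped for Max and Mycl, Mycl and Mnt, Mlx and Mxi1, and Myc and Mxd3, so the ranges do not put these pairs in order. Within each of the 6 libraries, however, Myc was above Mxd3. The lengths are merged GENCODE exons. With the longest transcript in place of merged exons, Mxi1 moved up to the fourth place, and the other genes kept their order. On that length the ranges of Max (28.5 to 34.9) and Mycl (13.5 to 23.1) did not overlap.

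**Figure D1:**
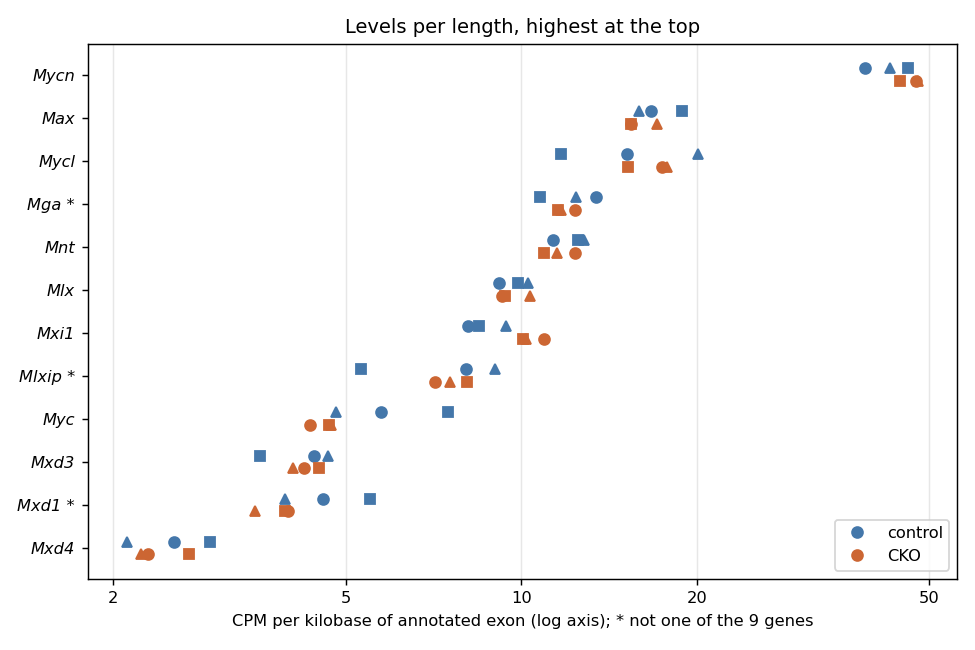
Level of each network gene in CPM per kilobase of annotated exon, on a log axis, for the 3 control libraries (blue) and the 3 libraries labelled CKO (orange), with replicates 1, 2 and 3 as circles, squares and triangles. Mycn lay between 38.7 and 47.8 in all 6 libraries, above every other gene plotted, and Mxd4 was lowest at 2.11 to 2.92. Genes with a star are partners outside the 9 genes.

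Within the Myc proteins, Mycn supplied most of the transcripts in every library. Its share of the summed per-kilobase level of Mycn, Myc and Mycl was 63.2% to 70.5% in control and 68.0% to 69.1% in CKO. The share of Mycl was 17.96% to 29.7% in control and 23.7% to 25.3% in CKO, and that of Myc was 7.11% to 11.5% and 6.27% to 7.27%. The 3 Myc genes together outweighed Mxd3, Mxd4, Mxi1 and Mnt in every library, and the ranges of the 2 groups overlapped. The summed level of the 3 Myc genes was 2.26 to 2.37 times that of Mxd3, Mxd4, Mxi1 and Mnt in control, and 2.28 to 2.51 times in CKO. These shares and ratios are descriptions without a test, and they use the same annotated lengths.

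To ask whether the network differed between Gata3 CKO and control lenses, each gene was read from edgeR's quasi-likelihood fit over all genes. No gene of the network passed an adjusted p-value of 0.05, and neither did any of the 12879 genes tested (0%). At an unadjusted p-value under 0.05 there was 1 of the 9, Mxi1, against 3.55% of all genes (1.3% higher and 2.24% lower in CKO). DESeq2's Wald test called 85 of all genes and none of the 9. In 2 of the 9, Mxi1 and Myc, the control and CKO values did not overlap, against 8.36% of all genes (3.67% higher and 4.69% lower). The log2 fold changes lay between -0.39, for Myc, and 0.26, for Mxi1, with a median of -0.015, beside 0.0019 over all genes tested. With TMM scaling 4 of the 9 were higher and 5 lower, whereas scaling by library totals alone moved the median of all genes to 0.10 and put Max, Mxd4, Mnt and Mlx above 0, at 0.0092, 0.047, 0.029 and 0.088. The split of all genes at an unadjusted p under 0.05 also moved with that scaling, from 168 higher and 289 lower to 428 higher and 191 lower. For each of the 9 genes the 95% interval of the difference lay within a 2-fold change in either direction.

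**Figure D2:**
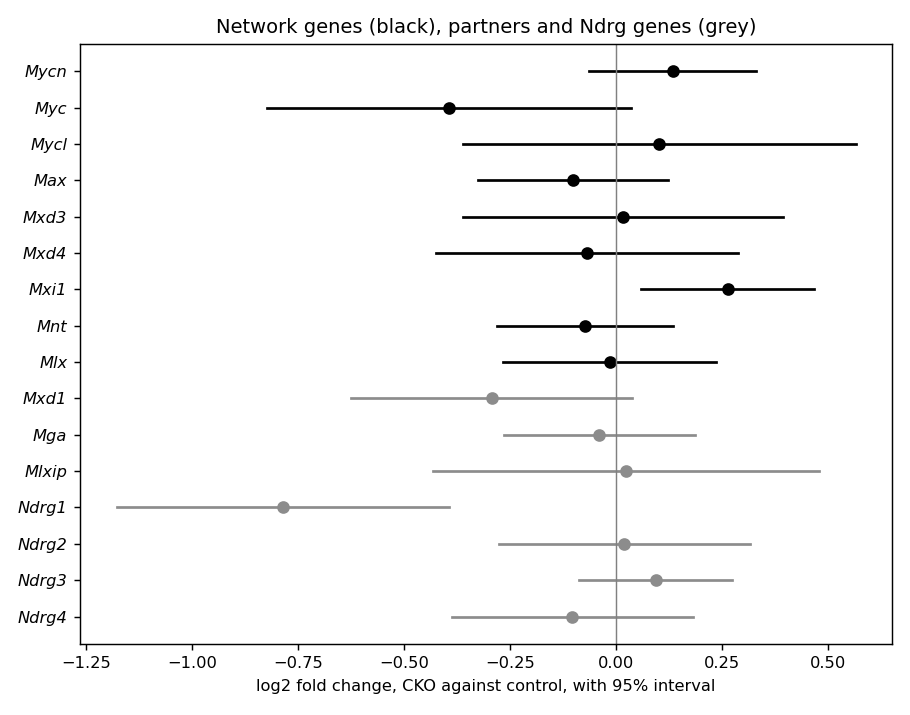
Log2 fold changes of CKO against control with 95% intervals from edgeR for the 9 network genes (black), and for Mxd1, Mga, Mlxip and the Ndrg genes (grey). Among the 9, only the interval of Mxi1, 0.06 to 0.47, did not cross 0, and the interval of Myc reached from -0.82 to 0.04.

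Positions of the genes are those of GENCODE M21 on GRCm38 (mm10). Mycn, on chromosome 12 (12936093–12941914, reverse strand), encodes N-Myc. It was at 128, 151 and 141 CPM in control replicates 1, 2 and 3 and at 156, 147 and 157 CPM in CKO replicates 1, 2 and 3. The highest control value, that of replicate 2, was above CKO replicate 2, so the groups overlapped. The means were 139.9 ± 11.8 and 153 ± 6.03 CPM (SD, n = 3 each), a difference of 0.13 on the log2 scale (SE 0.083, 95% interval -0.06 to 0.33, adjusted p = 0.9998). Leaving out single libraries gave 0.087 to 0.20. In edgeR's fit without control replicate 2 the unadjusted p was 0.0193 and the adjusted p was 0.646.

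Myc, on chromosome 15 (61985391–61990374, forward strand), encodes c-Myc, the founding member of the family. It was at 15.7, 20.4 and 13.1 CPM in control and at 11.8, 12.7 and 12.8 CPM in CKO. The 3 libraries labelled CKO were all lower than the lowest control library, and the gap between the highest CKO library and control replicate 3 was small beside the spread among the controls. The means were 16.4 ± 3.70 and 12.4 ± 0.554 CPM (SD, n = 3 each), a difference of -0.39 on the log2 scale (SE 0.18, 95% interval -0.82 to 0.04, adjusted p = 0.9998). The exact two-sided permutation test gave p = 0.1, the smallest that 3 against 3 allows. Control replicate 2 set much of the size: without it the log2 fold change was -0.20 (unadjusted p = 0.222 from edgeR), and without control replicate 3 it was -0.53 (unadjusted p = 0.0147 from edgeR, adjusted p = 0.476).

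Mycl, on chromosome 4 (122995652–123002485, forward strand), encodes L-Myc, which is known from neural and epithelial tissue. Its values were 61.3, 47.1 and 81.0 CPM in control and 70.3, 61.5 and 71.7 CPM in CKO. Control replicate 2 was the lowest and control replicate 3 the highest of the 6 libraries, so the control values enclosed all those of CKO. The means were 63.2 ± 17.0 and 67.8 ± 5.55 CPM (SD, n = 3 each), a difference of 0.10 on the log2 scale (SE 0.19, 95% interval -0.36 to 0.56). Its sign depended on single libraries: it was -0.058 without control replicate 2 and 0.32 without control replicate 3.

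Max, on chromosome 12 (76937269–76962201, reverse strand), encodes the partner that Myc, Mxd and Mnt proteins share. It was at 60.1, 67.8 and 57.2 CPM in control and at 55.5, 55.4 and 61.5 CPM in CKO, with overlapping groups and the highest value in control replicate 2. The log2 fold change was -0.10 (SE 0.094, 95% interval -0.33 to 0.12). Mlx, on chromosome 11 (101087277–101092207, forward strand), was at 18.3, 19.7 and 20.6 CPM in control and at 18.5, 18.8 and 20.7 CPM in CKO. Its log2 fold change of -0.015 (SE 0.11, 95% interval -0.27 to 0.23) was the smallest in size of the 9 in this fit, and its sign turned in 4 of the 6 fits that leave out 1 library. In the annotation, 385 exon bases of Mlx are shared with Psmc3ip on the opposite strand. Psmc3ip was at 14.8 ± 1.64 CPM in control and 15.8 ± 0.0846 in CKO (SD, n = 3 each), and the strand setting of the counting is not given in the sources used here.

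Mxi1, on chromosome 19 (53310518–53375810, forward strand), encodes an Mxd protein that competes with Myc for Max. It was at 55.4, 57.7 and 64.1 CPM in control and at 74.5, 68.8 and 69.5 CPM in CKO, so every CKO library was above every control library. The means were 59.1 ± 4.53 and 70.9 ± 3.13 CPM (SD, n = 3 each), a difference of 0.26 on the log2 scale (SE 0.086, 95% interval 0.06 to 0.47, unadjusted p = 0.0185 and adjusted p = 0.9998 from edgeR). Its level was 1.2 times that of control, with an interval of 1.04 to 1.38 times. By the exact two-sided permutation test p was 0.1, the smallest possible. Its direction held in all 17 alternatives, and leaving out single libraries gave 0.23 to 0.33, although the unadjusted p from edgeR was 0.0703 without CKO replicate 1 and 0.0536 without control replicate 1. With retina and mesenchyme markers as covariates the log2 fold change was 0.26 (adjusted p = 0.0599 from edgeR), the lowest adjusted p of any of the 9 genes in any alternative.

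Mnt, on chromosome 11 (74830920–74845725, forward strand), encodes a broadly expressed antagonist of Myc. It was at 52.4, 57.9 and 59.2 CPM in control and at 57.1, 50.6 and 53.3 CPM in CKO, with overlapping groups and a difference of -0.07 on the log2 scale (SE 0.087, 95% interval -0.28 to 0.13). Mxd3, on chromosome 13 (55325168–55329823, reverse strand), is the Mxd gene known from cells in S phase. Its values of 10.45, 8.46 and 11.1 CPM in control and 10.0, 10.7 and 9.63 CPM in CKO also overlapped, with a difference of 0.02 on the log2 scale (SE 0.16, 95% interval -0.36 to 0.39). Its counts were the lowest of the 9, at 120 to 210 per library, and 105 of its exon bases are shared with Prelid1 on the opposite strand, which was at 152 ± 9.62 CPM in control and 154 ± 12.99 in CKO (SD, n = 3 each). Mxd4, on chromosome 5 (34173883–34187720, reverse strand), is known from differentiating cells. It was at 21.5, 24.8 and 17.9 CPM in control and 19.5, 22.8 and 18.9 CPM in CKO, a difference of -0.07 on the log2 scale (SE 0.15, 95% interval -0.42 to 0.29), with the control values again enclosing those of CKO. The signs of Mxd3 and Mxd4 both turned without control replicate 2, to -0.077 and 0.061, and that of Mxd3 also without CKO replicate 2, to -0.024. Of the exon bases of Mxd4 and Mxi1, 514 and 194 are shared with antisense genes that are not among those counted.

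**Figure D3:**
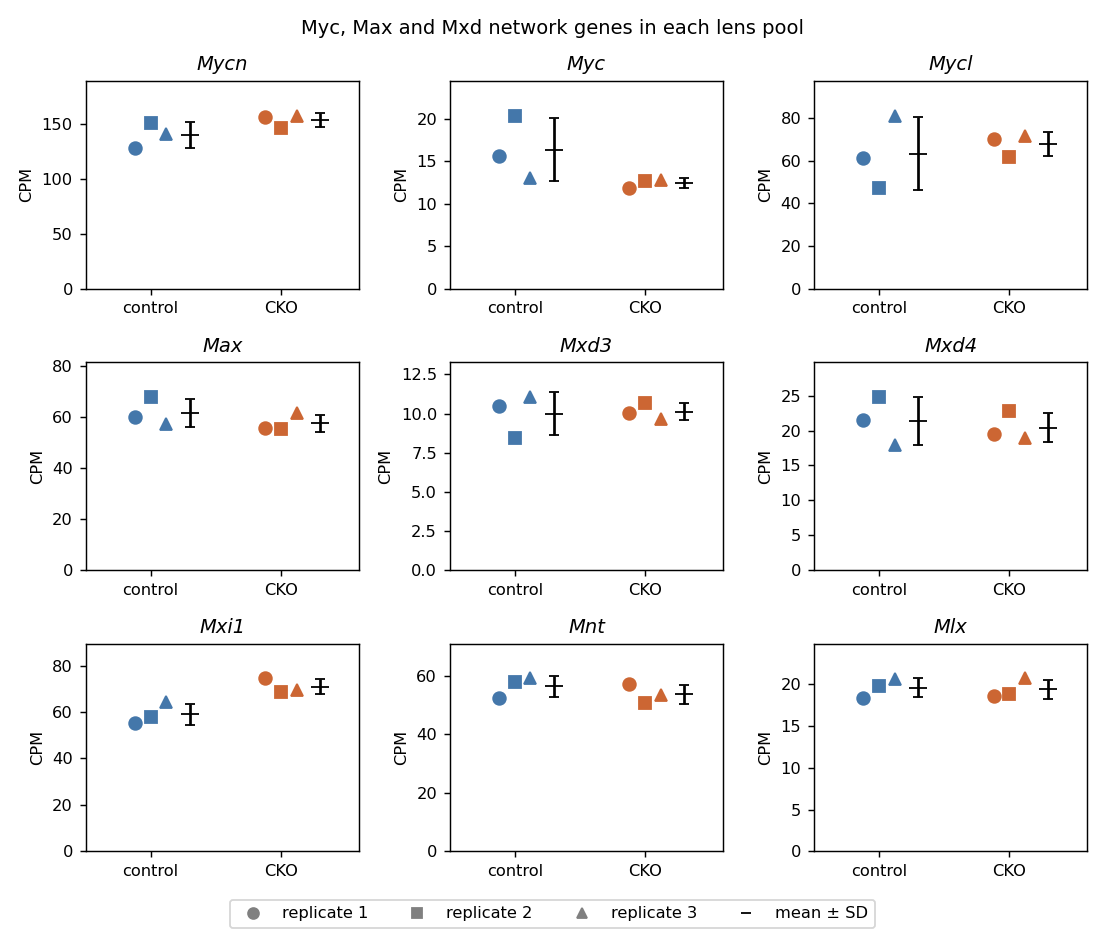
CPM of the 9 network genes in each library, with replicates 1, 2 and 3 as circles, squares and triangles and the mean ± SD of 3 pools beside them; every axis starts at 0. The groups are separate for Mxi1 (55.4 to 64.1 in control, 68.8 to 74.5 in CKO) and Myc (13.1 to 20.4 and 11.8 to 12.8), and overlap for the other 7 genes.

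The spread was wider among control pools than among CKO pools for 8 of the 9 genes, Mlx being the exception, and for 70.7% of all genes tested. Several of the genes varied together with tissue markers. Over the 6 libraries, the log2 CPM of Mycl and the mean of the 15 retina markers had a Pearson correlation of 0.99, while Mxd4 had one of -0.94 with the same markers. Neither was particular to retina: Mycl had one of 0.94 with the proliferation markers, and Mxd4 had one of 0.94 with the vessel markers. Myc had a correlation of 0.94 with the 16 lens fibre markers in the table, of 0.93 with the blood markers and of 0.94 with the macrophage markers. Mxi1 had one of -0.78 with lens fibre markers and of -0.79 with macrophage markers. Mnt had one of -0.89 with the mesenchyme markers and of -0.80 with both the pigment and the surface ectoderm markers. Mxd3 had one of -0.90 with the lens epithelium markers, and Max had one of 0.87 with the blood markers. The lens fibre markers summed to 8297 to 24149 CPM in control and 7800.3 to 11505 CPM in CKO, and the 9 macrophage markers to 83.3 to 154 and 76.0 to 101 CPM. The blood markers summed to 348 to 1276 CPM in control and 283 to 412 CPM in CKO, with 3 of the 7 in the table at 0 in every library. Control replicate 2 holds the extreme value of the fibre, blood, macrophage and retina markers at once and all markers were scaled by the same library totals, so these 6 points are a description and are given without a p-value. For Mycn the correlations were -0.04 with retina, -0.26 with lens fibre and -0.47 with mesenchyme markers. Its largest in size among the marker lists was -0.63, with the pigment markers, and it had 0.42 with the lens epithelium markers. The part of these tissues in the values of the 9 genes was not tested beyond the fit that follows. In a fit with the retina and mesenchyme means as covariates, which leaves few degrees of freedom, the log2 fold changes of Mycn, Myc and Mycl were 0.18, -0.26 and 0.008 (unadjusted p = 0.0108, 0.0679 and 0.912 from edgeR, with adjusted p = 0.175, 0.495 and 0.987).

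**Figure D4:**
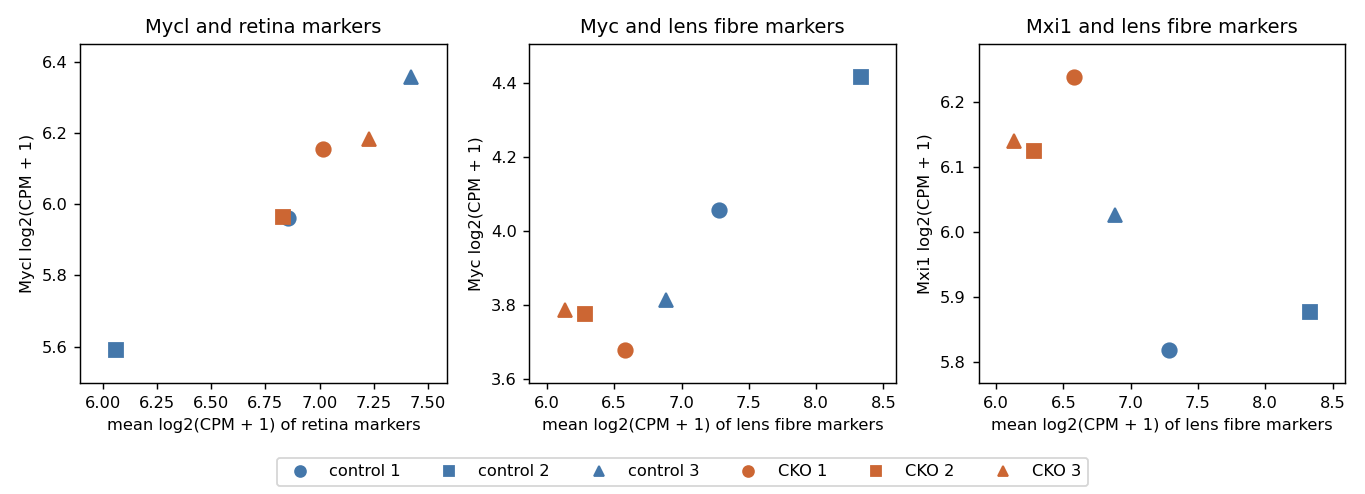
Log2(CPM + 1) of Mycl against the mean of 15 retina markers, and of Myc and Mxi1 against the mean of 16 lens fibre markers, 1 point per library (control blue, CKO orange). Mycl was lowest in control replicate 2 and highest in control replicate 3, as were the retina markers. Myc was highest in control replicate 2, which has the most fibre marker RNA.

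Other members of the extended network were taken from a list of 4, of which 3 were in the table. Mxd1, a Max partner known from differentiating cells, was at 33.0 ± 5.57 CPM in control and 26.9 ± 1.88 in CKO (SD, n = 3 each), a difference of -0.29 on the log2 scale (SE 0.14, 95% interval -0.62 to 0.04). Leaving out single libraries gave -0.40 to -0.15, the latter without control replicate 2. Mga, a large protein that pairs with Max and represses, had a log2 fold change of -0.04, and Mlxip, which encodes MondoA, had one of 0.02. The sign of both rested on single libraries, with -0.11 (without control replicate 2) to 0.052 (without control replicate 1) for Mga and -0.16 (without control replicate 2) to 0.18 (without control replicate 3) for Mlxip. None of the 3 passed an unadjusted p-value of 0.05 in edgeR's fit to all 6 libraries, and in all 3 the groups overlapped. Without control replicate 3, where 1234 of all genes were at that level, Mxd1 had an unadjusted p of 0.0152 (adjusted p = 0.478 from edgeR).

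No cofactor gene had an unadjusted p under 0.05 in edgeR's fit to all 6 libraries, against 3.55% of all genes. Of 12 coactivator genes, such as the histone acetyltransferase gene Kat2a, 3 were higher and 9 lower, from -0.14 (Dmap1, which was -0.22 without CKO replicate 1 and -0.087 without CKO replicate 2) to 0.13 (Kat2a, which was 0.27 without control replicate 2 and 0.045 without control replicate 3). Of 14 genes for Sin3 and histone deacetylase complexes, 8 were higher and 6 lower, from -0.37 (Ing2) to 0.11. Ing2 was at -0.09 without control replicate 2 and at -0.56 without control replicate 3. Of 8 genes for proteins that bind Myc, 1 was higher and 7 lower, with a median of -0.05. Zbtb17, which encodes the Myc partner Miz1, was at 43.8 ± 1.46 and 39.1 ± 3.41 CPM (SD, n = 3 each), a difference of -0.16 on the log2 scale (SE 0.091), and Mycbp2, a ubiquitin ligase gene named for binding Myc, had one of -0.19 (SE 0.099). Of 14 genes for the phosphorylation and turnover of Myc, 6 were higher and 8 lower. The ubiquitin ligase gene Huwe1 had a difference of -0.15 on the log2 scale (SE 0.11, -0.097 without control replicate 3 and -0.22 without control replicate 2). Set, which inhibits the phosphatase that acts on Myc, had one of 0.11 (SE 0.090, 0.060 without CKO replicate 3 and 0.18 without control replicate 3). In none of these 48 cofactor genes were the groups separate, against 8.36% of all genes. These counts of direction rest on the scaling, since with library totals alone 11 of the 12 coactivator genes, 12 of the 14 Sin3 and deacetylase genes, 5 of the 8 binding genes and 13 of the 14 turnover genes were higher. The absence of an unadjusted p under 0.05 also rested on the fit. Without control replicate 2, where 806 of all genes were at that level, Kat2a was at 0.00742 and Huwe1 at 0.0339 in edgeR. Ing2 was at 0.0137 without control replicate 3, and Mycbp2 at 0.0207 without CKO replicate 1. With retina and mesenchyme covariates (1503 of all genes), Kat2a, Mycbp2 and Huwe1 were at 0.00406, 0.0105 and 0.0165 (adjusted p = 0.0911, 0.172 and 0.228 from edgeR).

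Targets of Myc in growth lay on both sides of 0. Of 47 genes of the nucleolus, ribosome making, translation and metabolism, 23 were higher and 24 lower. Their median on the log2 scale was -0.0037 beside 0.0019 over all genes, and 0 were at an unadjusted p under 0.05 in edgeR in either direction. With retina and mesenchyme covariates 2 higher and 2 lower were at that level, where 1503 of all genes were. Without control replicate 2 it was 30 higher and 17 lower, and with library totals alone 34 higher and 13 lower. Odc1, the rate-limiting enzyme of polyamine synthesis, was at 258 ± 17.8 CPM in control and 257 ± 25.8 in CKO (SD, n = 3 each), a difference of -0.0073 on the log2 scale (SE 0.099). Ncl and Npm1, which encode the nucleolar proteins nucleolin and nucleophosmin, had log2 fold changes of -0.06 (SE 0.099) and 0.04 (SE 0.083). Ranbp1, a gene of nuclear transport, was the only one of the 47 whose groups did not overlap, against 8.36% of all genes, with a difference of 0.16 on the log2 scale (SE 0.075). The amino acid transporter gene Slc7a5 had the lowest value, -0.56 (SE 0.30). It was -0.08 without control replicate 2 and -0.73 without control replicate 3.

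Of 14 cell cycle targets, 11 were higher and 3 lower, with a median of 0.098 on the log2 scale, but without control replicate 2 this was 6 higher and 8 lower, with a median of -0.0046. At an unadjusted p under 0.05 there were 1 higher and 1 lower, against 1.3% and 2.24% of all genes. Ccne1, which encodes cyclin E1, was at 20.6 ± 3.48 CPM in control and 27.2 ± 3.17 in CKO (SD, n = 3 each), a difference of 0.40 on the log2 scale (SE 0.15, unadjusted p = 0.0338 and adjusted p = 0.9998 from edgeR, and 0.30 to 0.56 leaving out single libraries). Id2, whose product blocks differentiation factors, was at 94.7 ± 11.4 and 78.8 ± 4.19 CPM (SD, n = 3 each). The difference was -0.26 on the log2 scale (SE 0.10, unadjusted p = 0.0378 and adjusted p = 0.9998 from edgeR). It was -0.15 without control replicate 2 and -0.33 without control replicate 3. In both genes, and in none of the other 12, the groups did not overlap, against 8.36% of all genes. Cdk4 and Ccnd2, which act in G1, had log2 fold changes of 0.04 (SE 0.089) and -0.06 (SE 0.27). That of Ccnd2 was 0.30 without control replicate 2 and -0.30 without control replicate 3. The 16 proliferation markers also turned with that library, with 14 higher in the full set and 4 higher without it, as did the 15 retina markers, with 15 higher and then 1.

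Genes that Myc is known to repress with Miz1 showed the widest values among these lists. Of the 5 tested, 3 were higher and 2 lower, with 1 in each direction at an unadjusted p under 0.05, against 1.3% of all genes higher and 2.24% lower. Without control replicate 2 the split was 2 higher and 3 lower, and the median went from 0.088 to -0.14. Cdkn1a, which encodes the kinase inhibitor p21, was at 10.2 ± 3.68 CPM in control and 18.8 ± 0.634 in CKO (SD, n = 3 each), with no overlap, a difference of 0.88 on the log2 scale (SE 0.25, unadjusted p = 0.0103 and adjusted p = 0.967 from edgeR). Leaving out single libraries gave 0.67 (without control replicate 3) or more. Gadd45b, a stress response gene, was at 8.70 ± 5.12 and 2.23 ± 0.532 CPM (SD, n = 3 each). The difference was -1.96 on the log2 scale (SE 0.45, unadjusted p = 0.00372 and adjusted p = 0.638 from edgeR). It was -1.37 without control replicate 2 and -2.25 without control replicate 3. Cdkn1c, which encodes the kinase inhibitor p57, was at 642 ± 296 and 413 ± 33.3 CPM (SD, n = 3 each), with overlapping groups. The difference was -0.64 on the log2 scale (SE 0.30). It was -0.18 without control replicate 2 and -0.85 without control replicate 3. The fit with retina and mesenchyme covariates, which leaves few degrees of freedom, called 464 of all genes (3.6%). In that fit Cdkn1a was at 1.12 and Gadd45b at -1.49 (adjusted p = 3.32e-05 and 0.000212 from edgeR), and the 5 genes split into 2 higher and 3 lower. Of 6 genes induced by the Mlx partners MondoA and ChREBP, 5 were higher and 1 lower, and all 6 were higher with library totals alone. None was at an unadjusted p under 0.05 in edgeR's fit to all 6 libraries. Txnip, the leading MondoA target, had a difference of 0.22 on the log2 scale (SE 0.14, 95% interval -0.11 to 0.55). That of Txnip was 0.35 without CKO replicate 1 (unadjusted p = 0.0235 and adjusted p = 0.9995 from edgeR) and 0.13 without CKO replicate 2.

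The Ndrg genes are named for being regulated downstream of N-Myc, which represses Ndrg1. Ndrg1 was at 82.7, 124 and 94.3 CPM in control and at 65.7, 53.4 and 55.6 CPM in CKO, and the highest value in CKO was lower than the lowest in control. Its log2 fold change was -0.78 (SE 0.16, unadjusted p = 0.00226 and adjusted p = 0.582 from edgeR), and leaving out single libraries gave -0.89 to -0.59. The fit with retina and mesenchyme covariates leaves few degrees of freedom, takes its covariates from the same libraries and called 3.6% of all genes. In that fit Ndrg1 was at -0.64 (adjusted p = 8.11e-06 from edgeR). The study lists Ndrg1 and Gadd45b as lower in lens mutants of Gata3, of N-Myc and of Prox1. It took the Gata3 part from these same libraries, so neither gene is independent evidence of its direction here. For Ndrg2, Ndrg3 and Ndrg4 the differences were 0.02, 0.09 and -0.10, and the groups overlapped. Of the 4 Ndrg genes 2 were higher and 2 lower, and 1 was at an unadjusted p under 0.05, against 3.55% of all genes. Without control replicate 2 it was 3 higher and 1 lower, as Ndrg4 moved to 0.0039.

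**Figure D5:**
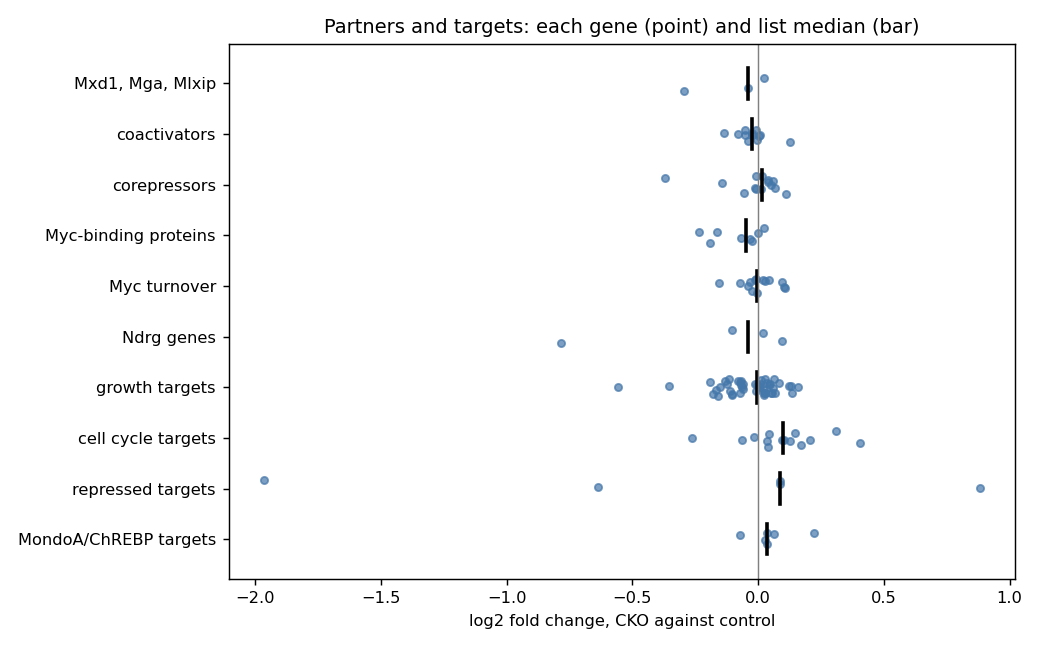
Log2 fold changes of CKO against control for each gene (points) and the median (bars) of 10 lists of partners and targets. Most points lay near 0, as for the 47 growth targets with a median of -0.0037. The outlying points are Gadd45b (-1.96), Ndrg1 (-0.78), Cdkn1c (-0.64) and Slc7a5 (-0.56) on the lower side and Cdkn1a (0.88) on the higher side. Cdkn1c and Slc7a5 were at -0.18 and -0.08 without control replicate 2, and at -0.85 and -0.73 without control replicate 3.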

How the data were processed

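Per the labels and the study's methods, polyA RNA of 6 lens pools was sequenced on strand-specific libraries. The authors aligned fragments to mm10 with TopHat2 2.0.13, counted them per RefSeq gene with HTSeq 0.6.1, and deposited raw counts only for genes whose FPKM exceeded 1 in one of the groups. CKO libraries are numbered here by their titles (1, 2 and 3). The table holds 42 genes at 0 in all libraries and no rows without a gene name. Pools of separate embryos are the replicates, and no 2 libraries of one group agreed within sampling noise.

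Genes with 10 or more counts in 3 or more libraries were normalized by TMM. The quasi-likelihood test of edgeR 4.0.16, fitted robustly over all genes under R 4.3.3, was used with Benjamini-Hochberg adjustment at 0.05. Exact permutation tests used log2(CPM + 0.5). Levels per kilobase used GENCODE M21 exons for GRCm38, with 12787 genes matched by symbol. Promoters came from RefSeq (GRCm38.p6). The tests were checked on simulated counts. Alternatives were DESeq2 1.42.0, limma 3.58.1 (voom), a likelihood ratio test, other normalization, other filters, the replicate number as a block, marker covariates and each library left out. The network genes and lists were chosen with earlier results of these data known. Named genes are the 9, the Ndrg and other Max or Mlx partner genes, the 3 with the smallest p in each list, 7 textbook targets or partners, exon neighbours, markers, and the 2 genes most alike to each of the 9.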

Additional observations from a re-analysis of the deposited data

How the results depend on the processing

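None of the 9 network genes passed an adjusted p of 0.05 in any of 17 alternatives, and 139 of 153 recomputed log2 fold changes kept their direction. Mycn, Myc and Mxi1 never turned. Leaving out single libraries gave log2 fold changes of -0.058 to 0.32 for Mycl, -0.077 to 0.097 for Mxd3, -0.18 to 0.061 for Mxd4, -0.066 to 0.023 for Mlx, -0.15 to -0.018 for Max and -0.12 to -0.032 for Mnt. Library totals alone shifted the median of all genes to 0.10, and on that scale Max, Mxd4, Mnt and Mlx were at 0.0092, 0.047, 0.029 and 0.088. With retina and mesenchyme covariates Mxd3 was at -0.057 and Mxd4 at 0.0058. The number of all genes past an adjusted p of 0.05, 0 in edgeR's quasi-likelihood test, was 85 with DESeq2, 78 with edgeR's likelihood ratio test, 464 with the covariates, 1 with library totals alone, and 0 to 1 with each library left out. At an unadjusted p under 0.05 it was 457, and 1503 with the covariates and 271 to 1234 with each library left out (806 without control replicate 2, 1234 without control replicate 3 and 271 without CKO replicate 3). Of the 9 network genes, 1 had an unadjusted p under 0.05, 2 with library totals alone, 2 with the covariates, and 0 to 2 with each library left out (0 without control replicate 1 or CKO replicate 1, 2 without control replicate 2 or control replicate 3). The cause of these differences was not tested. The replicate block gave 0 genes at an adjusted p under 0.05, 516 at an unadjusted p under 0.05 and 1 of the 9. Same-numbered libraries had correlations of -0.52, 0.088 and 0.50 between their deviations from group means. Pairs with unlike numbers had -0.48 to 0.59. With 3 libraries in each group, these values cannot settle whether same-numbered pools belong together. The 9 genes had 120 to 3025 counts per library, and counting error and the spread between pools were not separated.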

Other observations

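The genes whose pattern over the 6 libraries was most like that of each network gene were looked up among 11600 other tested genes with a mean of 5 CPM or more, by Pearson correlation of log2(CPM + 1). For Mycl these were Nhlh2, a transcription factor gene of neurons (correlation 0.998), and Mapk8, which encodes the kinase JNK1 (0.998), and 11.2% of the genes compared had a correlation of 0.9 or more with it. For Mycn they were Grik5, a kainate receptor subunit gene (0.99), and Ube2k, a ubiquitin-conjugating enzyme gene (0.98), and 0.552% of genes had a correlation that high. For Myc they were Mgat4a (0.998) and Nif3l1 (0.997), with 4.62% of genes at 0.9 or more. For Mxi1 they were Dgkz, a diacylglycerol kinase gene (0.998), and Elfn1 (0.99), with 0.560% of genes at that level. Max was most like Galk1 and Hibadh (0.99 each), Mxd3 most like Morc2a (0.995) and Adgrl3 (0.99), and Mxd4 most like Cflar (0.998) and Azi2 (0.99). Mnt was nearest to Fam126a (0.99) and E130308A19Rik (0.98), and Mlx to Zfp428 (0.99) and Phlpp1 (0.98). These are the highest of 11600 correlations for each gene over only 6 libraries, and all values share the library totals.

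Within the network, the correlations over the 6 libraries ran from -0.96, for Mycl with Mxd4, to 0.88, for Myc with Max. Myc was opposed to Mycl (-0.84) and to Mxi1 (-0.82), and Mycn had its highest value with Mxi1 (0.72). Per kilobase, the ratio of Mycn to Myc was 6.12 to 8.90 in control and 9.50 to 10.9 in CKO, so the groups did not overlap. This is given without a test or a share over other gene pairs, and the groups of Myc alone were separate too. Other ratios overlapped, such as the summed Myc genes to Max, at 3.45 to 4.26 in control and 4.11 to 4.49 in CKO.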
